A study of Homo sapiens with 12 samples.

Results

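The 9 genes described here encode transcription factors that set and maintain epithelial lineages: SOX2, SOX4 and SOX9 of the SRY-box family, the forkhead factors FOXA1 and FOXA2, the zinc-finger factors GATA6, KLF4 and KLF5, and TP63 of the p53 family. They were taken from the count table by the Ensembl identifiers that map to these symbols, 1 row each, which gave 9 of 62754 identifiers. Of these, 8 passed the filter on low counts and were tested with 17115 genes in all, and FOXA2 did not pass. The cells were PC9, a human lung adenocarcinoma line that depends on a mutant EGFR, here grown from a subclonal line. RNA was sequenced in 12 libraries, 3 for each of 4 groups. TDP1 wild-type cells without drug (untreated WT) were set beside wild-type cells given erlotinib, an inhibitor of the EGFR kinase, at 1 µM: DTC, the drug-tolerant cells present after 7 days, and DTEC, the drug-tolerant expanded cells present after 28 days. The remaining group, also without drug, was KO2, a TDP1 knockout line, and it is 1 line, so that the loss of TDP1 and other properties of that line cannot be told apart. TDP1 encodes tyrosyl-DNA phosphodiesterase 1, which removes trapped topoisomerase 1 from DNA. The labels say that the 3 cultures in each group were split from a shared flask before they were grown apart, so p-values measure the spread between such cultures.

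Lineage factors of this kind bind enhancers of genes that a cell type uses and hold those genes open for other regulators. FOXA1, FOXA2 and GATA6 are pioneer factors of endoderm, the germ layer of the lung and gut, and can bind their sites in closed chromatin. SOX2 and TP63 mark the proximal airway and its basal stem cells, SOX9 marks the growing tips of the embryonic lung, SOX4 is active in many progenitor cells and in epithelial cells that turn mesenchymal, and KLF4 and KLF5 act in terminal differentiation and in growth of epithelia. Loss or switching of such factors is known from lung tumours that change lineage under treatment.

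The promoters of FOXA1 and KLF4, which were both lower in DTC, and of GATA6 and TP63, which were both higher in DTC, are printed to show the sequence around an annotated start of each gene. Whether the counted transcripts start there was not tested. The TP63 window lies at the upstream end of the gene, so starts further inside are not covered. The windows run from 250 bases before to 50 bases after the gene start in RefSeq on GRCh38.p14 and are written 5′ to 3′ on the strand of the gene. Capitals mark matches to 3 of the 5 motifs searched on both strands: the SOX motif (ACAAAG or ACAATG), the GC box (GGGCGGGG) and the TATA box (TATAAA). The other 2 motifs searched, the forkhead motif TGTTTAC and the GATA motif AGATAA, had no match in any of the 8 windows found for 7 of the 9 genes.
FOXA1, chr14:37595200-37595499, minus strand: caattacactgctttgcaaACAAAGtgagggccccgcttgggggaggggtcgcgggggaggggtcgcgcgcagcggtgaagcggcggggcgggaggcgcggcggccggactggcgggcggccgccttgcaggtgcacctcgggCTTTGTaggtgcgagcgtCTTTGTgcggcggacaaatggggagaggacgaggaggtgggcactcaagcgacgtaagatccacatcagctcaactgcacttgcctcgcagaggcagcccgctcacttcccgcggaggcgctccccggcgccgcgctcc
KLF4, chr9:107489720-107490019, minus strand: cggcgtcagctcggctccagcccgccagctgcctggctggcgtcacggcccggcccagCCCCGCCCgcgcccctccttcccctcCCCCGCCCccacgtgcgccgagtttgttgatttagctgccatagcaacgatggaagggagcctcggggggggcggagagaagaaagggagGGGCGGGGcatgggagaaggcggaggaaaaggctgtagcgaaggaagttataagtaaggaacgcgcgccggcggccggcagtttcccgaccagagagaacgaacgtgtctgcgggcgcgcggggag
GATA6, chr18:22169339-22169638, plus strand: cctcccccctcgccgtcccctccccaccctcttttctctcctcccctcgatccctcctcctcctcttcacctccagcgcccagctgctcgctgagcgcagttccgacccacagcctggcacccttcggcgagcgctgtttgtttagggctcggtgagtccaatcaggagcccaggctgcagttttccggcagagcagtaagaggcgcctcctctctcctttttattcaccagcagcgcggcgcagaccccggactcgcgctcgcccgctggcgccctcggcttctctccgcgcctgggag
TP63, chr3:189631139-189631438, plus strand: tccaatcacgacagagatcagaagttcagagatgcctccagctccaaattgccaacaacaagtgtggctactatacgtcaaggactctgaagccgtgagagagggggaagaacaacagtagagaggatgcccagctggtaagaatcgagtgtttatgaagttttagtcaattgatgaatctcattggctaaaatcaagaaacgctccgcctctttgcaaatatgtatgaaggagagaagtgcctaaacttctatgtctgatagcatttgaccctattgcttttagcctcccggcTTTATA
The FOXA1 window held 3 SOX motifs, starting 231, 107 and 89 bases before the gene start, whereas 24.5% of all 35116 promoter windows in the table held at least 1. KLF4 had 3 GC boxes at 192, 166 and 76 bases before its start, a motif that 22.8% of all windows held, and KLF factors are known to bind GC-rich boxes. TP63 had 1 TATA-box match, on the opposite strand 45 bases after the start, against 11.5% of all windows, and GATA6 had none of the 5 motifs. The forkhead motif was in 3.42% of all windows and the GATA motif in 10.3%. GC contents of the printed windows were 69.33% for FOXA1, 69% for KLF4, 66.67% for GATA6 and 43.67% for TP63, with a median of 58.7% over all windows. With 4 windows, this is a description only. The windows of SOX2 (63.33% GC, 1 SOX motif and 1 GC box), SOX4 (49.33%, 0 motifs) and KLF5, which also fell in DTC (40.67% with 1 TATA box and 1 SOX motif in an upstream window, 71.33% with 1 GC box in a downstream one), were searched in the same way, with no overlap between matches, and a match is a stretch of letters, not a shown binding site.

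The libraries held 25572691 to 38373679 estimated counts. Levels are given as CPM, counts scaled to a common library total with TMM factors (edgeR's correction for differences in RNA composition), and 3 counts, taken as the floor of detection, corresponded to 0.0824 to 0.115 CPM. Mitochondrial genes held a share of 2.504% to 2.77% (untreated WT), 4.43% to 5.41% (DTC), 1.82% to 2.38% (DTEC) and 2.59% to 2.78% (KO2). Their part in the differences between the groups was not tested. TDP1, the targeted gene, was lower in KO2 (10.8 against 26.3 CPM; log2 fold change -1.29, SE 0.110, edgeR quasi-likelihood adjusted p = 1.3e-05), in the direction of the label. It was also lower in DTC (13.96 CPM). Epithelial markers were present in every group: means of KRT7 were 1965 to 2071 CPM, those of CDH1 285 to 355 CPM and those of EPCAM 363 to 634 CPM. Their levels were not all kept. KRT7 and CDH1 were called in neither treated group against untreated WT, but EPCAM was lower in DTC (edgeR adjusted p = 6.07e-06) and DTEC (0.000545). KRT8 fell in DTC from 4015 to 1869 CPM (adjusted p = 3.07e-06), and the full epithelial list is counted below. Of alveolar markers, SFTPC was at no more than 0.0880 CPM and NKX2-1 at no more than 0.442 CPM in any library, although NKX2-1 was called higher in DTC (edgeR adjusted p = 0.00276). Other genes of the alveolar list were well above the floor, such as LAMP3 (5.42 CPM in untreated WT, 13.9 CPM in DTC) and ABCA3 (5.15 and 9.16 CPM). Of markers of other cell types, PTPRC and CD3E (blood cells) and DCN and COL3A1 (fibroblasts) stayed at or under 0.147 CPM in every library, while PECAM1, CDH5, CD68 and COL1A1 were present. The endothelial markers among them went different ways. VWF was at 0.122 CPM in untreated WT and called higher in DTC (1.57 CPM, edgeR adjusted p = 2.88e-05) and DTEC (0.405 CPM, adjusted p = 0.0196). PECAM1 was at 32.0 CPM in untreated WT, called lower in DTC (8.77 CPM, adjusted p = 4.43e-09) and higher in DTEC (92.1 CPM, adjusted p = 7.26e-08). CDH5 was called in neither against untreated WT (adjusted p = 0.110 and 0.0686).

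With erlotinib the factors moved in both directions. In DTC, SOX4, GATA6 and TP63 rose and FOXA1, KLF4 and KLF5 fell, KLF5 without a call under 2 other scalings. In DTEC, FOXA1 was higher than in DTC and not called against untreated WT, KLF5 was above its untreated level and GATA6 below it, and SOX4 was still high. SOX9 fell in DTEC and was called neither way in DTC, and SOX2 was called higher in DTEC on few counts. Only DTEC and KO2 libraries brought SOX2 past the filter on low counts. In KO2 none of the 8 tested genes was called, although SOX4 was called there in 8 of 18 alternative analyses. Here called means an adjusted p under 0.05 in the edgeR quasi-likelihood test, with adjustment over all 17115 genes. In bulk RNA, fewer cells that express a gene and less RNA per cell cannot be told apart.

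**Figure D1:**
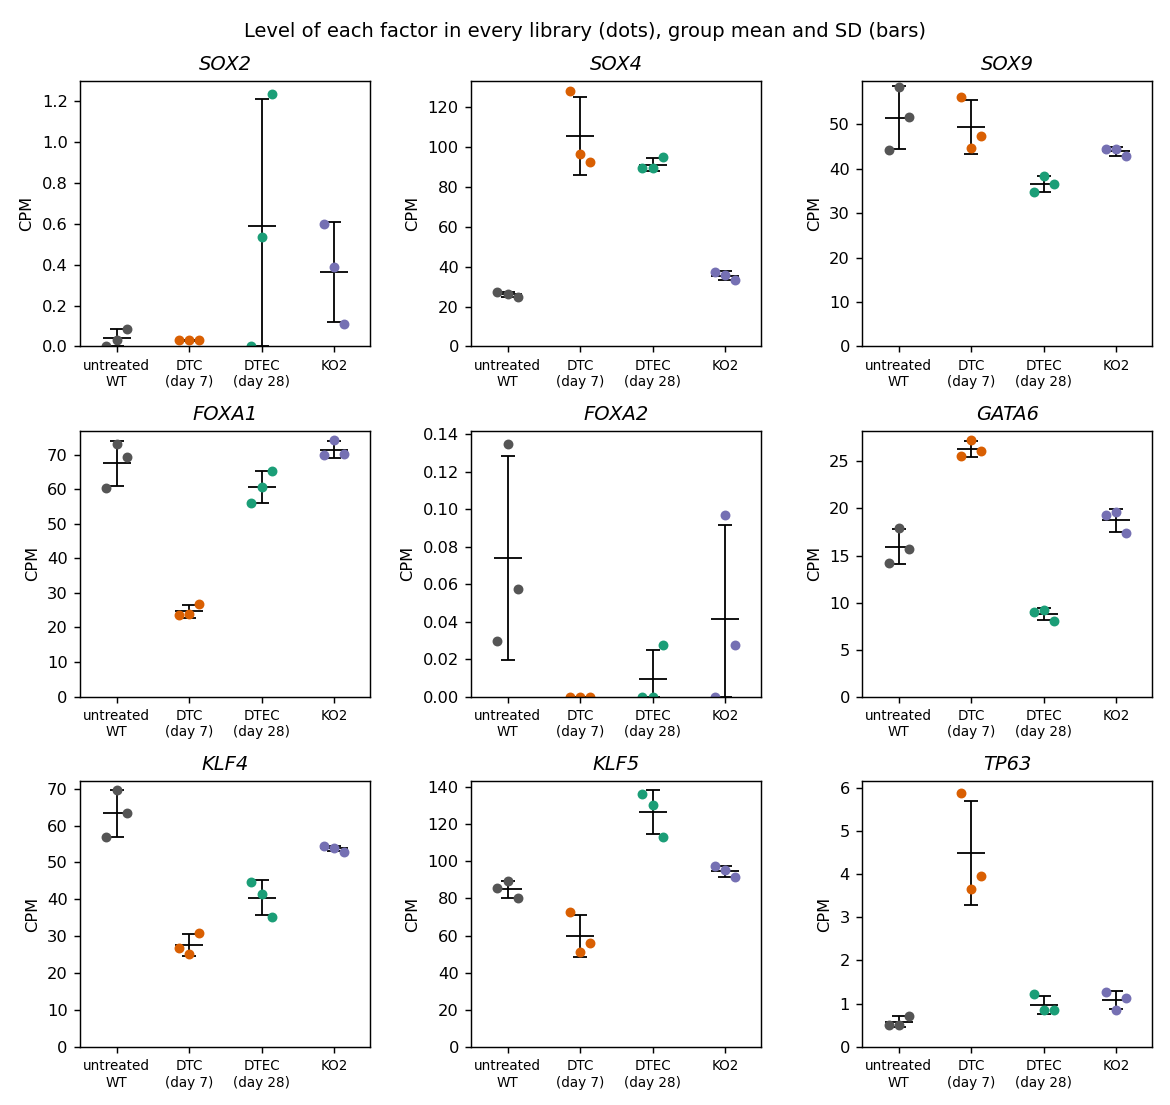
Level of each of the 9 genes in CPM (vertical axes from 0, each on its own scale) in the 4 groups (horizontal axis), with 1 dot per library and bars for the mean and SD of 3 libraries (the lower bar stops at 0). The 3 DTC libraries of FOXA1 sit between 23.5 and 26.9 CPM, under all 9 other libraries, and the DTC libraries of GATA6 sit between 25.6 and 27.3 CPM, above all others.

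These counts cover few genes and are given beside the same share of all genes. In DTC against untreated WT, 6 of the 8 tested factors were called, where 67.3% of all tested genes were. The 3 that were higher compare with 34.0% of all genes and the 3 that were lower with 33.3%. At 2-fold or more, 2 were higher (22.3% of all genes) and 2 lower (13.9%). In DTEC against untreated WT, 6 were called (background 52.3%), 3 higher (26.0%) and 3 lower (26.3%), with 2 at 2-fold or more, both higher (13.2%), and 0 lower (6.7%). In DTEC against DTC, 7 were called (background 55.4%), 4 higher (28.8%) and 3 lower (26.6%), of which 3 were higher (8.1%) and 2 lower (14.3%) by 2-fold or more. In both DTEC comparisons SOX2 is counted as higher by 2-fold or more. It passed the filter only through DTEC and KO2 libraries, and its groups overlapped. With the compared libraries alone SOX2 was not tested, and 5 factors were called against untreated WT and 6 against DTC. The libraries of the groups did not overlap for 6 of the 8 factors in each of these 3 comparisons, against 68.9%, 62.4% and 56.7% of all genes in the same order. The background itself depended on scaling: 50.5% of all DTC calls were higher with TMM, 68.4% with total counts alone and 65.0% with upper quartile factors. For DTEC against untreated WT the corresponding shares were 49.7%, 63.7% and 59.1%, and for DTEC against DTC 51.9%, 37.4% and 38.7%. Total counts alone moved the median log2 fold change of all genes by 0.35 in DTC, 0.17 in DTEC and -0.19 between DTEC and DTC, and upper quartile factors moved it by 0.29, 0.11 and -0.17. The DTC and DTEC comparisons share the untreated libraries.

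**Figure D2:**
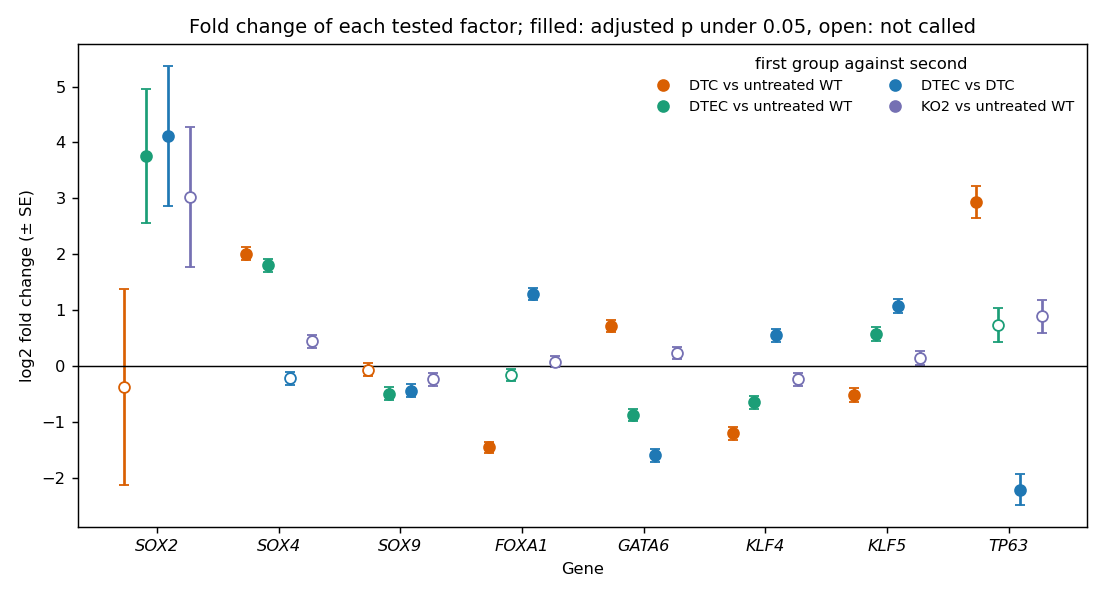
Log2 fold change with its standard error (vertical axis) of the 8 tested genes (horizontal axis) in 4 comparisons (colours), with filled markers for calls at an adjusted p under 0.05. SOX4 has filled markers near 2 for both treated groups against untreated WT, FOXA1 has a filled marker at -1.45 for DTC and an open one at -0.16 for DTEC, and no KO2 marker is filled.

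SOX4 encodes an SRY-box factor that is highly active in progenitors and in many carcinomas. The gene lies at chr6:21592768-21598619 on the plus strand (GENCODE 29, GRCh38) and its exons cover the whole span, so it has no intron there. Its level was 27.2, 26.5 and 24.7 CPM in the 3 untreated WT libraries and 128.0, 96.4 and 92.4 CPM in DTC. It was 89.4, 89.3 and 94.9 CPM in DTEC and 37.6, 36.0 and 33.1 CPM in KO2. Every erlotinib library lay above every untreated one, and the 3 KO2 libraries fell between untreated WT and the treated groups. SOX4 rose 4.04-fold in DTC (log2 fold change 2.01, SE 0.122, edgeR adjusted p = 5.02e-09) and 3.49-fold in DTEC (1.80, SE 0.122, adjusted p = 5.82e-08). The DTEC and DTC libraries overlapped and their difference was not called with TMM scaling (-0.21, SE 0.117, edgeR adjusted p = 0.141). With total counts alone it was called (-0.40, adjusted p = 0.00974), as it was with upper quartile factors (-0.38, adjusted p = 0.00962), and the adjusted p ran from 0.00962 to 0.512 over the alternatives.

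SOX9, a factor of embryonic lung tips and of progenitors in several glands, had the smallest range of group means over the 4 groups of the tested factors, although single comparisons of other factors were smaller. It lies at chr17:72121020-72126420, plus strand. The untreated WT libraries had 44.2, 58.3 and 51.7 CPM, DTC 56.1, 44.7 and 47.3 CPM, DTEC 34.7, 38.4 and 36.4 CPM and KO2 44.5, 44.3 and 42.7 CPM. The untreated, DTC and KO2 libraries overlapped, and the 3 DTEC libraries lay below all others. SOX9 fell in DTEC to 71.0% of untreated WT (log2 fold change -0.49, SE 0.115, edgeR adjusted p = 0.00248) and to 74.0% of DTC (-0.43, SE 0.115, adjusted p = 0.00549). In DTC the difference from untreated WT was -0.06 (SE 0.115, adjusted p = 0.662) with TMM, and its sign turned to 0.29 (adjusted p = 0.0379) with total counts alone and to 0.23 (adjusted p = 0.0825) with upper quartile factors. Over the alternatives the adjusted p ran from 0.0379 to 0.943, and no direction is given for SOX9 in DTC.

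SOX2, the factor of proximal airway and of squamous lung tumours, was at or near the floor in most libraries. It lies within chr3:181711924-181714436, plus strand, as a single exon. The counts, which were whole numbers in all 12 libraries, were 0, 1 and 3 in untreated WT and 1, 1 and 1 in DTC. In DTEC they were 0, 14 and 45, and in KO2 17, 12 and 4. SOX2 was thus above the floor in 2 of 3 DTEC libraries and in all KO2 libraries, and DTEC overlapped untreated WT because its replicate 1 had no count. Pooled over the libraries of a group, DTEC had 15.1 times the untreated level (95% exact interval 5.60 to 57.3, which covers counting error only) and KO2 8.44 times (3.00 to 32.8). SOX2 passed the filter on low counts only through DTEC and KO2 libraries, where it is high. Its tests in these groups are therefore no independent support for a rise. With the compared libraries alone SOX2 was not tested. The DTEC difference was called by the edgeR test (adjusted p = 0.0174). That call was lost without DTEC replicate 3 (adjusted p = 0.128) and without untreated WT replicate 1 (0.0604) or replicate 2 (0.0533). The adjusted p ran from 4.4e-05 to 0.128 over the 17 alternatives that tested SOX2. Against DTC, the DTEC call (adjusted p = 0.0126) was lost without DTEC replicate 3 (0.0963, in a range of 1.3e-05 to 0.0963). The highest level, in DTEC replicate 3, was 1.24 CPM. Whether reads of the overlapping noncoding gene SOX2-OT entered these counts was not tested.

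FOXA1, a pioneer factor that opens chromatin in endoderm, breast and prostate epithelium, had the lowest log2 fold change of the called factors in DTC. It lies at chr14:37589984-37596059 on the minus strand. The untreated WT libraries had 60.3, 73.1 and 69.2 CPM and the DTC libraries 23.5, 23.8 and 26.9 CPM. DTEC had 56.0, 60.5 and 65.1 CPM and KO2 69.9, 74.2 and 70.2 CPM. The DTC libraries stood apart below all others, while DTEC overlapped untreated WT. FOXA1 fell in DTC to 36.6% of untreated WT (log2 fold change -1.45, SE 0.104, edgeR adjusted p = 2.37e-08) and rose 2.45-fold from DTC to DTEC (1.29, SE 0.104, adjusted p = 1.94e-07). DTEC against untreated WT gave -0.16 (SE 0.101, adjusted p = 0.207), which was 0.01 with total counts alone. FOXA2, its relative in endoderm at chr20:22581005-22585455 (minus strand), was not tested: its counts were 1, 4 and 2 in untreated WT, 0, 0 and 0 in DTC, 0, 0 and 1 in DTEC, and 0, 3 and 1 in KO2. At 0 to 4 counts a library, FOXA2 was at or barely over the floor, and no fold is given.

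GATA6, the endoderm GATA factor of lung and gut, moved up at day 7 and down at day 28. It lies at chr18:22169443-22202528, plus strand. Its levels were 14.2, 17.9 and 15.7 CPM in untreated WT, 25.6, 27.3 and 26.2 CPM in DTC, 9.04, 9.17 and 7.997 CPM in DTEC, and 19.3, 19.6 and 17.4 CPM in KO2. The 3 wild-type groups were separate from each other, and KO2 overlapped untreated WT. GATA6 rose 1.65-fold in DTC (log2 fold change 0.73, SE 0.110, edgeR adjusted p = 4.03e-05) and fell in DTEC to 54.8% of untreated WT (-0.87, SE 0.113, adjusted p = 2.04e-05). Between DTC and DTEC it fell to 33.2% (-1.59, SE 0.113, adjusted p = 6.07e-08), the largest difference between the treated groups among the factors above 10 CPM in any group. KLF5 moved the opposite way in DTEC, and in DTC with TMM scaling.

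KLF4, a zinc-finger factor of epithelial differentiation at chr9:107484852-107490482 (minus strand), was highest without erlotinib. The untreated WT libraries had 56.9, 69.7 and 63.4 CPM and KO2 had 54.5, 54.0 and 52.9 CPM. DTC had 26.7, 25.2 and 30.8 CPM and DTEC 44.7, 41.4 and 35.3 CPM. No treated library reached any untreated one. KLF4 fell to 43.5% in DTC (log2 fold change -1.20, SE 0.116, edgeR adjusted p = 4.78e-07) and to 63.9% in DTEC (-0.65, SE 0.115, adjusted p = 0.000301), and DTEC was 1.47-fold above DTC (0.55, SE 0.116, adjusted p = 0.00104). FOXA1 and KLF4, whose promoters are printed above, thus both fell at day 7.

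KLF5, a growth-related KLF factor of gut, airway and squamous epithelium, lies at chr13:73054976-73077542, plus strand. Its levels were 85.5, 89.4 and 80.1 CPM in untreated WT and 72.8, 51.1 and 55.9 CPM in DTC. They were 136.5, 130.2 and 113.3 CPM in DTEC and 97.2, 95.1 and 91.5 CPM in KO2. DTEC lay above every other group and DTC below. KLF5 rose in DTEC 1.49-fold over untreated WT (log2 fold change 0.58, SE 0.123, edgeR adjusted p = 0.00132) and 2.11-fold over DTC (1.08, SE 0.125, adjusted p = 6.1e-06). Its fall in DTC (-0.51, SE 0.124, adjusted p = 0.00232) was not called with total counts alone (-0.15, adjusted p = 0.292) or upper quartile factors (-0.22, adjusted p = 0.107), in a range of adjusted p from 1.79e-05 to 0.292 over the alternatives.

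TP63 encodes p63, the master factor of basal cells in airway and skin, and spans 265864 bases at chr3:189631416-189897279, plus strand. Of the factors above the floor in every library it had the lowest level per exon length. It had 0.508, 0.506 and 0.721 CPM in untreated WT (17, 15 and 25 counts), 5.88, 3.65 and 3.96 CPM in DTC (174, 124 and 135 counts), 1.22, 0.840 and 0.852 CPM in DTEC (40, 22 and 31 counts) and 1.26, 0.842 and 1.13 CPM in KO2 (36, 26 and 41 counts). DTC stood apart, and the libraries of DTEC and KO2 overlapped each other while lying above untreated WT. TP63 rose 7.78-fold in DTC (log2 fold change 2.94, SE 0.287, edgeR adjusted p = 5.18e-07), the largest called fold of the set in that comparison, and fell in DTEC to 21.6% of DTC (-2.20, SE 0.273, adjusted p = 1.18e-05). DTEC against untreated WT was not called (0.74, SE 0.301, adjusted p = 0.0519), with adjusted p of 0.0204 to 0.187 over the alternatives. Gene-level counts do not separate the isoforms of TP63 that have or lack the transactivation domain.

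No factor was called between KO2 and untreated WT. The edgeR test called 0 of the 8, where 4.31% of all genes were called (2.76% higher and 1.55% lower). Of the 8, 3 had an unadjusted p under 0.05 (SOX4, TP63 and SOX2), and DESeq2 called 1, SOX4. SOX4 had a log2 fold change of 0.44 (SE 0.120, edgeR adjusted p = 0.0531) and was called in 8 of 18 alternatives, with adjusted p between 0.00109 and 0.202. TP63 had 0.89 (SE 0.299, adjusted p = 0.124) and SOX2 an adjusted p of 0.233. The other 5 lay between -0.24 and 0.23 with adjusted p of 0.303 or more. The libraries did not overlap for 5 of the 8 factors (SOX2, SOX4, KLF4, KLF5 and TP63), against 35.7% of all genes. Among these, SOX2 passed the filter on low counts only through DTEC and KO2 libraries. Of all KO2 calls, 64.1% were higher with TMM, 78.8% with total counts alone and 52.6% with the compared libraries alone. All of these values rest on 1 knockout line.

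Per kilobase of exon, which allows genes to be compared, KLF5 was the most abundant factor in every group but DTC. In untreated WT the level (CPM per kilobase) was 21.8 ± 1.19 (SD, n = 3) for KLF5, 17.3 ± 1.76 for KLF4, 17.0 ± 1.64 for FOXA1 and 13.1 ± 1.80 for SOX9. SOX4 (4.47 ± 0.216) and GATA6 (4.04 ± 0.476) followed, well above TP63 (0.0776 ± 0.0166). The libraries of KLF4 and FOXA1 overlapped, as did those of SOX4 and GATA6, so these neighbours have no order. In DTC the order of means was SOX4 (18.04 ± 3.33), KLF5 (15.4 ± 2.93) and SOX9 (12.5 ± 1.52), each overlapping the next, then KLF4 (7.53 ± 0.804), GATA6 (6.68 ± 0.212) and FOXA1 (6.21 ± 0.469), again overlapping in sequence. In DTEC KLF5 led at 32.5 ± 3.08, SOX4 (15.6 ± 0.549) and FOXA1 (15.2 ± 1.15) overlapped, KLF4 (11.1 ± 1.31) and SOX9 (9.28 ± 0.467) overlapped, and GATA6 was at 2.21 ± 0.163. KO2 kept KLF5 (24.3 ± 0.742) first and had SOX4 at 6.07 ± 0.384, with FOXA1 (17.9 ± 0.607), KLF4 (14.7 ± 0.213) and SOX9 (11.1 ± 0.246) between them and none of these overlapping. Exon length is that of all exons merged, and a shorter transcript in use would raise the level per kilobase.

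**Figure D3:**
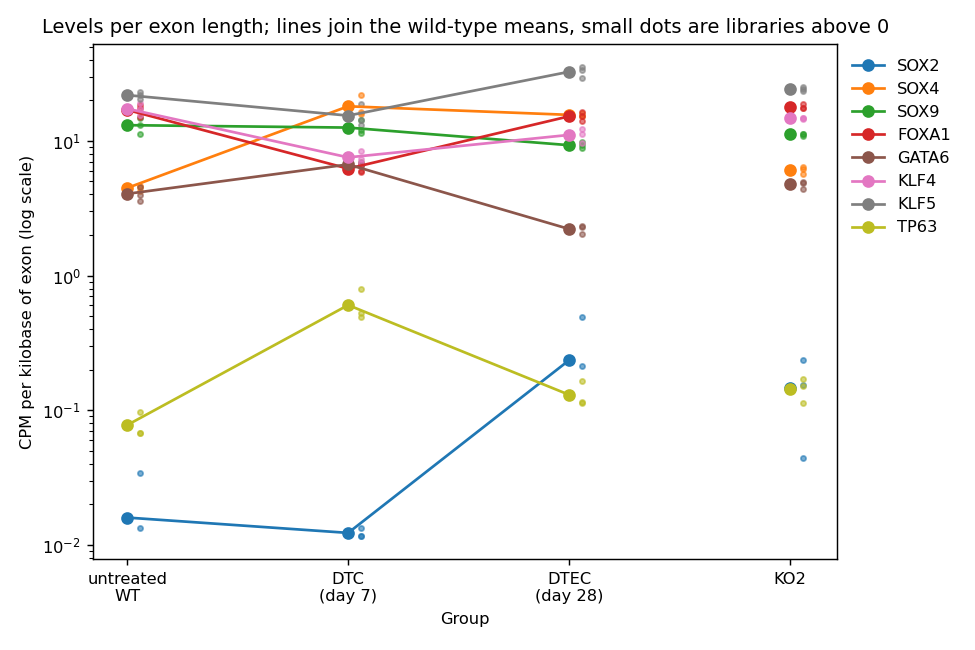
CPM per kilobase of exon on a log axis for 8 genes in the 4 groups: large dots are means of 3 libraries, lines join the wild-type groups, and small dots are single libraries above 0 (FOXA2, at or near 0, is left out). SOX4 rises from 4.47 in untreated cells to 18.04 at day 7 and passes FOXA1, which goes from 17.0 to 6.21.

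Noncoding genes next to some of these loci were read with the same test. It called 67.3% of all genes in DTC, 52.3% in DTEC against untreated WT, 55.4% in DTEC against DTC and 4.31% in KO2. GATA6-AS1, antisense to GATA6 and overlapping it by 436 bases, had a mean of 0.150 CPM in untreated WT, 1.84 CPM in DTC and 0.180 CPM in DTEC. It rose in DTC (edgeR adjusted p = 9.11e-05) and fell again in DTEC against DTC (adjusted p = 0.000247), so that its high group was also the high group of GATA6. CASC15, 66152 bases downstream of SOX4 on the same strand, was at 0.0411 CPM in untreated WT (4 counts in 3 libraries), 5.40 CPM in DTC and 0.402 CPM in DTEC, with adjusted p of 4.89e-08 and 2.56e-06 for the rise and the later fall. SOX4 itself was called lower in DTEC than in DTC only with total counts alone or upper quartile factors. SOX9-AS1, whose span covers all 5401 bases of SOX9 on the opposite strand, was at 0.279, 0.742 and 0.624 CPM and was called higher in DTC (adjusted p = 0.0106) and DTEC (0.0400). The 2 calls among the tested neighbours in DTEC against untreated WT became 1 in 9 of 18 alternatives, among them those without untreated WT replicate 1 or 2, DTC replicate 3, DTEC replicate 2 or 3, or KO2 replicate 3. SOX2-OT, whose span contains SOX2 on the same strand, had a mean of at most 0.164 CPM and was not tested, and LINC00261 beside FOXA2 was at 0 in all 12 libraries. In KO2 the edgeR test called 0 of the 3 tested neighbours, with 0 at an unadjusted p under 0.05 and 0 called by DESeq2. The library kit keeps strand, but whether the counting used it is not given in the sources used here, so reads of overlapping pairs cannot be told apart.

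The relatives of these factors did not move as 1 block. Of all tested genes, 67.3% were called in DTC, 52.3% in DTEC against untreated WT, 55.4% in DTEC against DTC and 4.31% in KO2. Of 16 other SOX genes 5 were tested, and 4 fell in DTC (median log2 fold change of the 5, -1.18, against 0.06 over all tested genes), with 0 higher, while SOX4 rose. SOX7, a factor of endoderm and vessels, fell from 47.3 to 3.56 CPM (log2 fold change -3.73, SE 0.114, edgeR adjusted p = 2.16e-11), SOX13 by 1.52 and SOX12, a close relative of SOX4, by 1.18. In DTEC 3 of the 5 were higher than in DTC and 2 were lower than in untreated WT. With total counts alone or upper quartile factors, 1 of the 2 calls in DTEC against untreated WT was higher. With TMM the count of 2 became 1 without untreated WT replicate 2 or 3, DTEC replicate 1 or 2, or any 1 of the KO2 libraries. Of 12 tested KLF relatives, 2 rose and 4 fell in DTC, with KLF8 up from 5.93 to 27.0 CPM (2.19, SE 0.142, adjusted p = 8.86e-09), KLF16 down by 1.22 and KLF10 down by 1.05. In DTEC 4 rose and 2 fell, and in DTEC against DTC 4 were higher and 4 lower. Of 10 tested FOX, GATA and p53 relatives, 4 rose and 3 fell in DTC, and 7 rose and 3 fell in DTEC. FOXQ1 fell in DTC from 76.3 to 15.4 CPM (-2.31, SE 0.105, adjusted p = 3.75e-10) and was at 58.9 CPM in DTEC, as FOXA1 did in direction, whereas GATA3 rose in DTC (0.89, SE 0.112, adjusted p = 6.41e-06). In KO2 the edgeR test called 0 of the SOX relatives (0 with an unadjusted p under 0.05, 0 by DESeq2) and 0 of the KLF relatives (5 and 2), and 1 of the third list, GATA2 (0.88, SE 0.157, adjusted p = 0.00561).

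Lists of genes that mark the lineages these factors serve were counted in the same fit. Their counts are to be read against all tested genes, of which 67.3% were called in DTC, 52.3% in DTEC and 55.4% between DTEC and DTC, and nothing particular to a list is drawn from them. Of 23 tested basal and squamous genes, the lineage of TP63 and SOX2, 9 rose and 8 fell in DTC (median 0.09, all genes 0.06), and 8 rose and 13 fell in DTEC (median -0.71, all genes 0.02). With total counts alone the DTC split was 12 higher and 5 lower. KRT17, a keratin of basal cells, rose in DTC from 0.562 to 13.7 CPM (4.596, SE 0.242, edgeR adjusted p = 1.33e-09), whereas ITGA6, a basal integrin, fell from 1255 to 129.4 CPM (-3.28, SE 0.215, adjusted p = 1.57e-08). KRT6A was at 22.1 CPM in untreated WT and fell in DTEC to 1.66 CPM (-3.74, SE 0.163, adjusted p = 1.15e-09). So the rise of TP63 in DTC came with basal genes in both directions.

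Of 12 tested airway secretory and mucous genes, 7 rose and 3 fell in DTC (median 1.42), and 8 rose and 1 fell in DTEC (median 2.39). MUC5B, a gel-forming mucin, was at 26.2 CPM without drug, 0.251 CPM in DTC and 217.5 CPM in DTEC, and both changes were called (edgeR adjusted p = 6.64e-09 and 6.89e-10 for DTC against untreated WT and DTEC against DTC). AGR2, a folding factor of mucous cells, was at 6.29, 10.99 and 131.7 CPM and rose in DTEC (4.39, SE 0.226, adjusted p = 8.25e-09). In KO2, 6 of these 12 rose and 1 fell, where 4.31% of all genes were called. BPIFB1 rose from 1.55 to 16.3 CPM (3.40, SE 0.190, adjusted p = 2.42e-07). The 7 KO2 calls became 2 without untreated WT replicate 2 or 3 or without KO2 replicate 1 or 2, 3 without untreated WT replicate 1, and 4 without DTEC replicate 2 or KO2 replicate 3, in a range of 2 to 8 over the alternatives. Of 14 tested alveolar and lung adenocarcinoma genes, 9 rose and 3 fell in DTC (median 1.52) and 5 rose and 3 fell in DTEC (median 0.45). SFTPB, a surfactant protein gene, was at 1.51, 0.0699 and 14.1 CPM in untreated WT, DTC and DTEC. MUC5B and SFTPB, lowest in DTC, went against most called members of their lists there. MUC1 rose 12.2-fold and BPIFB1 12.7-fold in DTC, and NAPSA rose from 0.127 CPM, near the floor, to 1.62 CPM (12.8-fold). SPDEF (log2 fold change -2.21) and TFF1 (-1.72) of the secretory list also fell. So did ETV5 (-2.33, from 100.2 CPM) and LPCAT1 (-1.77, from 286.9 CPM) of the alveolar list. The summed level of the alveolar list was 642.9 to 659.99 CPM in untreated WT and lower, 391.9 to 464.7 CPM, in DTC.

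Calls in the next 2 lists were no more frequent in DTC than the 67.3% of all genes. Of 6 tested gut and liver genes, 3 rose and 1 fell in DTC (median 1.19), and of 5 tested neuroendocrine and tuft genes 3 rose and 0 fell (median 1.42), with POU2F3, the tuft-cell factor, going from 0.219 to 2.45 CPM (3.48, SE 0.370, edgeR adjusted p = 1.27e-06). Of 21 tested genes of general epithelial identity, 7 rose and 11 fell in DTC (median -0.30), while 10 rose and 4 fell from DTC to DTEC (median 0.25). With total counts alone the DTC split turned to 10 higher and 5 lower, and with upper quartile factors to 9 and 5, so no direction is given for that list in DTC. KRT18, a simple-epithelial keratin, fell in DTC from 2930 to 1184 CPM (-1.31, SE 0.115, adjusted p = 1.78e-07) and was at 2609 CPM in DTEC. Of 10 tested mesenchymal genes, 9 rose in DTC (median 2.13) and 9 fell from DTC to DTEC (median -1.44), with the same counts under total counts alone and upper quartile factors. FN1, fibronectin, went from 95.3 to 8868 and then 861.6 CPM (6.54, SE 0.261, adjusted p = 2.41e-10 in DTC; -3.36, SE 0.224, adjusted p = 5.27e-08 from DTC to DTEC). Of 5 tested markers of other cell types, 3 rose and 1, PECAM1, fell in DTC. COL1A1 rose from 8.30 to 55.7 CPM (2.74, SE 0.115, adjusted p = 1.93e-10), while the fibroblast genes COL3A1 and DCN stayed under the floor. The summed level of all 11 such markers lay between 96.0 and 101.5 CPM (untreated WT), 132.7 and 159.6 (DTC), 170.9 and 192.9 (DTEC), and 116.0 and 121.2 (KO2), and their part in these results was not tested.

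**Figure D4:**
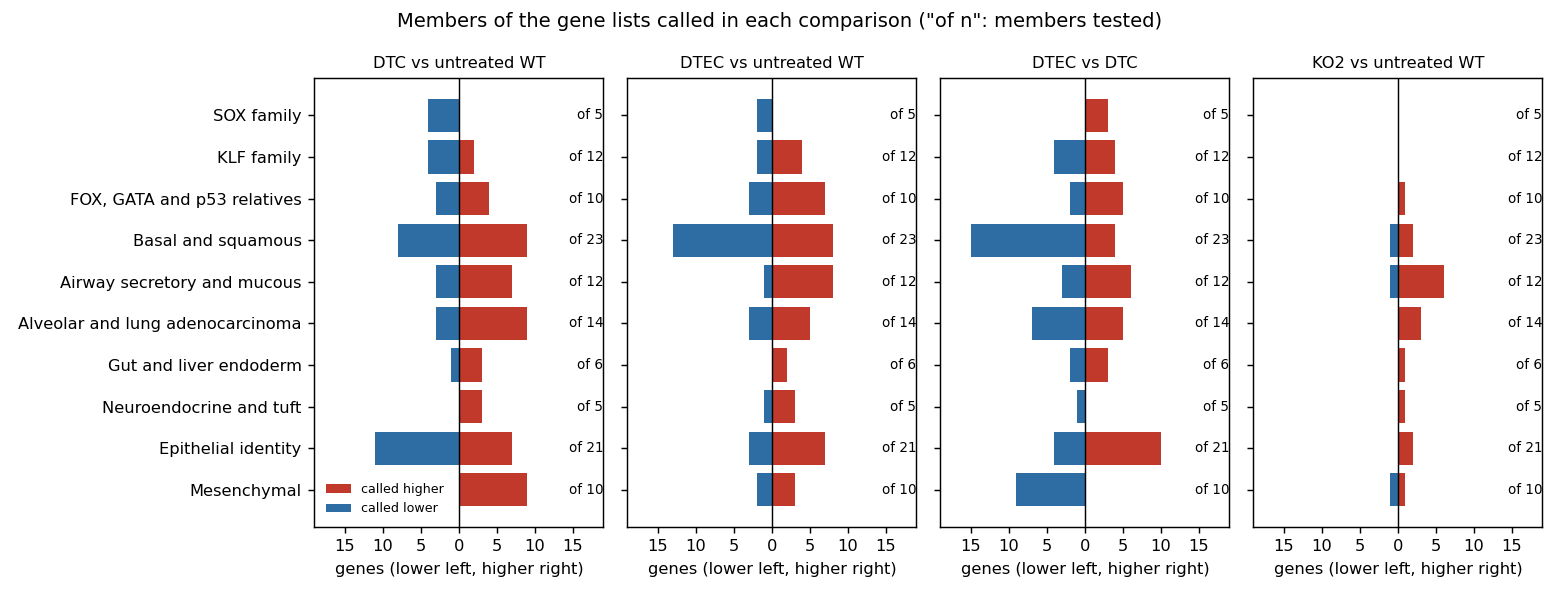
Number of genes in 10 lists called higher (to the right) or lower (to the left) in each of 4 comparisons, with the number tested at the right of each row. Of 10 mesenchymal genes, 9 are higher in DTC and 9 lower in DTEC against DTC, and the basal and squamous list has 13 of 23 genes lower in DTEC.

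The tested genes whose profile over the 12 libraries lay closest to each factor were found by the root mean square difference in log2 CPM after centring each gene, over 9799 genes (9800 for SOX2 and TP63) with a mean of at least 10 CPM. FOXA1 was matched most closely by CDC42EP4 (0.0886, with 68.8, 28.7, 69.4 and 80.5 CPM in untreated WT, DTC, DTEC and KO2) and TMEM97 (0.112). KLF5 was matched by DLG3 (0.0713) and TMEM245 (0.0797), and KLF4 by SPATA5L1 (0.0952) and TIMM44 (0.115). For SOX4 they were CUTALP (0.142, at 10.4, 37.95, 31.6 and 12.3 CPM) and JPH2 (0.156), and for GATA6 FAM219A (0.143) and POMGNT1 (0.164). TP63 had looser neighbours, FA2H (0.261, at 6.05, 39.2, 8.22 and 7.98 CPM) and GPRC5B (0.275), and the nearest to SOX2, KRT13 (0.948) and S100A8 (0.974), were not close. SOX9, with a 1.3995-fold range of group means, was not matched. These are the nearest of many genes measured in the same libraries, and the values are descriptions.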

How the data were processed

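RNA of 12 PC9 libraries (4 groups of 3) was sequenced as 101 bp pairs from polyadenylated RNA with a stranded kit, in 1 batch, per the labels' protocols. The deposited table holds expected counts, estimated reads per gene without scaling to depth. Per the submitters' processing notes, which give no roles, RSEM 1.3.1, Bowtie2 2.5.2, DESeq2 1.40.2 and GRCh38 were used, and the annotation is not given in the sources used here. Symbols were found for 62700 of 62754 identifiers and positions for 58261 in GENCODE 29. The table has 0 columns of other samples.

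Rounded counts were tested with edgeR 4.0.16 (on limma 3.58.1, R 4.3.3): filterByExpr by group (17115 genes, at least 99.891% of the counts of each library), TMM, all 12 libraries in 1 robust quasi-likelihood fit without a replicate block, and Benjamini-Hochberg adjustment over 17115 genes. SE is that of the log2 fold change, derived from the quasi-likelihood F test as the absolute log2 fold change over the square root of F. SD is over 3 libraries. The common biological coefficient of variation was 14.6%. Replicates differed by more than sampling noise (chi-square per degree of freedom 3.57 to 114), so no library was counted as a duplicate. Data were simulated for DTC against untreated WT (15347 genes), with 200 well-counted genes changed in both directions and all others left unchanged. The test called 47.8%, 89.6% and 100% of genes changed 1.5-fold, 2-fold and 4-fold, and 6 unchanged genes. These shares do not carry over to low counts such as those of SOX2 and TP63. Nor do they cover scaling in data where most genes are called.

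Alternatives were DESeq2 1.42.0, total counts alone, upper quartile factors, no filter, the compared libraries alone, a replicate block, and leaving out each library. The members and gene lists were chosen with earlier results of these data known. All 9 factors were named in every comparison. Up to 3 list members were named per comparison by the largest called change with a mean of at least 1 CPM and no overlap of the groups, and of these the text prints a part. Neighbours, level markers and list genes named otherwise, and values given for list genes in further groups, were chosen after their values were seen. The 2 genes closest in profile were named for each factor with a range of group means of at least 1.5-fold. Promoter sequences are from RefSeq.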

Additional observations from a re-analysis of the deposited data

How the results depend on the processing

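Of the 18 alternatives, none moved the number of genes called in DTC (10640 to 12323), DTEC (7766 to 10175) or DTEC against DTC (7856 to 10610) by more than 1.5 times, and the number of factors called stayed at 5 to 6, 5 to 7 and 6 to 8. For KO2 the number of genes called was 738 and moved to 1149 with DESeq2, 1147 without the filter and 2656 with the compared libraries alone, and ran from 321 to 1520 when single libraries were left out. The number of factors called in KO2 was 1 with DESeq2, total counts alone, upper quartile factors or the compared libraries alone (SOX4 each time), 2 without the filter (SOX4 and SOX2), and 0 to 1 when single libraries were left out. The log2 fold change of SOX9 in DTC reversed to 0.29 with total counts alone and 0.23 with upper quartile factors and ran from -0.12 to 0.069 when libraries were left out. That of SOX2 in DTC ran from -0.89 to 0.82 when libraries were left out, on 0 to 3 counts a library, and FOXA1 in DTEC reversed to 0.010 with total counts alone. The 2 scalings without TMM move the median of all genes, and beyond that the cause was not tested. TP63 in DTEC was called in 6 of 18 alternatives.

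The labels do not say that a replicate number marks shared cultures, and the data gave a hint only: deviations of libraries with the same number correlated at -0.03 to 0.18, with 4 of 18 pairs over 0.1, against -0.19 to 0.12 for other numbers, and 8 of 12 libraries correlated best with their own number. The libraries were not treated as paired. With the replicate block, 11775, 9255, 9732 and 887 genes were called in the 4 comparisons and 6, 7, 7 and 1 factors, where SOX4 was the factor called in KO2 (adjusted p = 0.0321) and TP63 was added in DTEC (adjusted p = 0.0429). Depth limits SOX2, FOXA2 and TP63, whose counts are lowest.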
